A study of Mus musculus with 12 samples.

Results

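The nuclear oxidative phosphorylation genes encode the subunits of the respiratory chain (complexes I to IV) and the ATP synthase (complex V) that are made outside the mitochondrion. They were taken by name from the gene table: Nduf genes of the a, b, c, s and v series for complex I, Sdha to Sdhd for complex II, Uqcr genes for complex III, Cox4 to Cox8 genes for complex IV and Atp5 genes for complex V. The rule matched 87 of the 43346 genes listed, and the 82 with 10 or more reads in at least 6 of the 12 libraries are described here: 37 for complex I, 4 for complex II, 8 for complex III, 16 for complex IV and 17 for complex V. The 5 that did not reach this number of reads were the testis-type isoforms Cox7b2 (3 reads over all libraries) and Cox8c (0 reads), and the pseudogenes Atp5l-ps1, Atp5l-ps2 and Atp5l2-ps (5, 52 and 18 reads). The name rule also takes in a few relatives that are not classical subunits: Ndufa4l2 and Cox7a2l, paralogues of subunits, and Atp5s and Atp5sl, which are named after the ATP synthase.

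All libraries were made from mouse veins collected on day 7 from surgery: the jugular vein in 6 sham libraries, and the venous limb of the AVF in 6 libraries labelled AVF-CKD. These letters are read here as arteriovenous fistula and chronic kidney disease. Strain, age and sex are not given in the labels, and the labels do not tie libraries to single mice, so the spread behind each p-value may be partly technical. The vessel label and the fistula change together between the groups. The sham group name does not say whether those mice had kidney disease. The parts of vessel, fistula and kidney disease in a group difference cannot be told apart. Total counts ranged from 38653830 to 60142016 per library. Both groups held RNA of a vessel wall: the 8 endothelial markers (Pecam1, Cdh5 and others) reached a sum of 1175 to 1636 CPM (counts scaled by library size) in sham libraries, against 984 to 1574 CPM in AVF-CKD libraries, and the 8 smooth muscle markers to 1814 to 2496 CPM and 1193 to 2296 CPM. Among the smooth muscle markers, Des rose with the skeletal muscle RNA described below. It ranged from 98.4 to 804 CPM over sham and from 90.5 to 957 CPM over AVF-CKD libraries, so that sum is not vessel wall alone. In whole tissue, fewer cells of a type and less RNA per cell cannot be told apart.

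In oxidative phosphorylation, complex I takes electrons from NADH and complex II from succinate. Complex III passes them to cytochrome c, and complex IV to oxygen. The proton gradient built on the way drives the ATP synthase. Each complex except II joins nuclear subunits with a few that are encoded in mitochondrial DNA. The 13 protein-coding genes of mitochondrial DNA are listed with 0 counts in every library of this table, so only the nuclear side is described. Several complex IV subunits have a general form and a second form used mainly in heart, skeletal muscle or brown fat. In the vessel wall mitochondria serve smooth muscle, endothelium and fibroblasts, which can also draw much of their ATP from glycolysis.

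Many nuclear subunit genes are known to be driven by nuclear respiratory factor 1 (NRF1) and by GABP, an ETS-family factor also called NRF2. Promoters of 65 of the 82 genes were found in the RefSeq table (GRCm38.p6, 250 bases before to 50 after the start). A gene was counted for a motif if any of its listed start sites had it, so genes with several starts had more sequence searched. The core letters of the NRF1 motif (GCGCA and GCGC with any base between) were found on either strand in 17 of these 65 genes (26.2%), against 5.19% of all 27025 genes in the table, which include noncoding genes. The ETS letters CCGGAAG were found in 16 (24.6%, against 9.93%), the YY1 letters AAGATGGC in 9 (13.8%, against 3.19%), and the letters of the muscle factor MEF2 (CTA and TAG with any 4 bases between) in 1 (1.54%, against 4.23%). Both the NRF1 and the ETS letters occurred in 4 of the 65 (6.15%, against 1.12%), and the searched motifs do not contain one another. By complex, the NRF1 letters were in 7 of 32 genes of complex I, 2 of 3 of complex II, 1 of 5 of complex III, 1 of 12 of complex IV and 6 of 13 of complex V. A match is a description of the letters and not a measured binding site. The following windows of 30 bases lie before the start site and are shown as examples of these letters, with at least 1 gene from each complex. They are written 5′ to 3′ on the strand of the gene, with the NRF1 letters in capitals in the first 6 and the ETS letters or their reverse complement in capitals in the last 4.
Cox6a1, chr5:115349056-115349085, minus strand: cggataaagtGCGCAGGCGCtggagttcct
Sdha, chr13:74350276-74350305, minus strand: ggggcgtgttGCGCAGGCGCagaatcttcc
Sdhd, chr9:50603909-50603938, minus strand: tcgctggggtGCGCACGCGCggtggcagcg
Ndufa11, chr17:56717692-56717721, plus strand: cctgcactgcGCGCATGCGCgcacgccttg
Atp5g2, chr15:102671070-102671099, minus strand: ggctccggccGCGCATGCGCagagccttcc
Atp5k, chr5:108434430-108434459, minus strand: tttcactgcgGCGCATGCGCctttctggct
Atp5j, chr16:84835020-84835049, minus strand: tagctgagggacCCGGAAGcacttaccctc
Cox6b1, chr7:30626125-30626154, minus strand: ctcctctcgcagCTTCCGGccagtcggaat
Sdhd, chr9:50603878-50603907, minus strand: accgtctcctgcCTTCCGGttcacgcttca
Uqcr11, chr10:80406870-80406899, minus strand: tttctctcctccCCGGAAGtagatgtcaat
Of the genes shown, Cox6a1 and Cox6b1 encode general complex IV subunits, Sdha and Sdhd the flavoprotein and a membrane anchor of complex II, Ndufa11 an accessory subunit of complex I, Uqcr11 a small subunit of complex III, and Atp5g2, Atp5j and Atp5k subunits of the ATP synthase.

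Together the 82 genes made up 0.712% to 0.880% of each sham library and 0.522% to 0.914% of each AVF-CKD library. Per transcript length, in the RPKM values of the deposited table, 12 of them averaged above 100 RPKM and 8 below 10 RPKM over the 12 libraries. The highest in each complex were Cox6b1, which encodes a subunit at the contact between the monomers of the complex IV dimer (222 RPKM), Ndufa4, first assigned to complex I and later found to be a subunit of complex IV (188 RPKM), the catalytic alpha subunit Atp5a1 of the ATP synthase (141 RPKM), the hinge protein gene Uqcrh of complex III (94.8 RPKM), and Sdhd (69.8 RPKM). The lowest were Cox6b2, the testis-type form of subunit VIb (1.93 RPKM), and Cox4i2, the lung and hypoxia form of subunit IV (2.09 RPKM). Many of these genes have processed pseudogenes of near-identical sequence, and how reads with several matches were counted is not given in the sources used here, so differences in level between genes are uncertain.

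No member passed the test over all genes between the fistula vein and the sham vein. The fold changes were small and mostly of one sign: 78 of the 82 had a log2 fold change below 0 and 4 above 0, with a median of -0.15, from -0.33 for Cox8b to 0.07 for Atp5g2. Over all 18965 genes tested the median was -0.00 and 50.9% were below 0. By edgeR's quasi-likelihood test with Benjamini-Hochberg adjustment over all genes, 0 members were called in either direction, as were 0% of all genes, and DESeq2 called 0 members and 102 genes. At an unadjusted p below 0.05, 1 member was lower and 0 were higher, where 4.08% of all genes were lower and 5.26% higher, so the count of members is below the background share. In none of the 82 did the groups separate (0.638% of all genes). For 79 of the 82 the 95% interval stayed inside a 2-fold change up or down, and for 75 inside a 1.5-fold change. The 3 exceptions to the first bound were the muscle forms of complex IV subunits, Cox6a2, Cox7a1 and Cox8b.

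**Figure D1:**
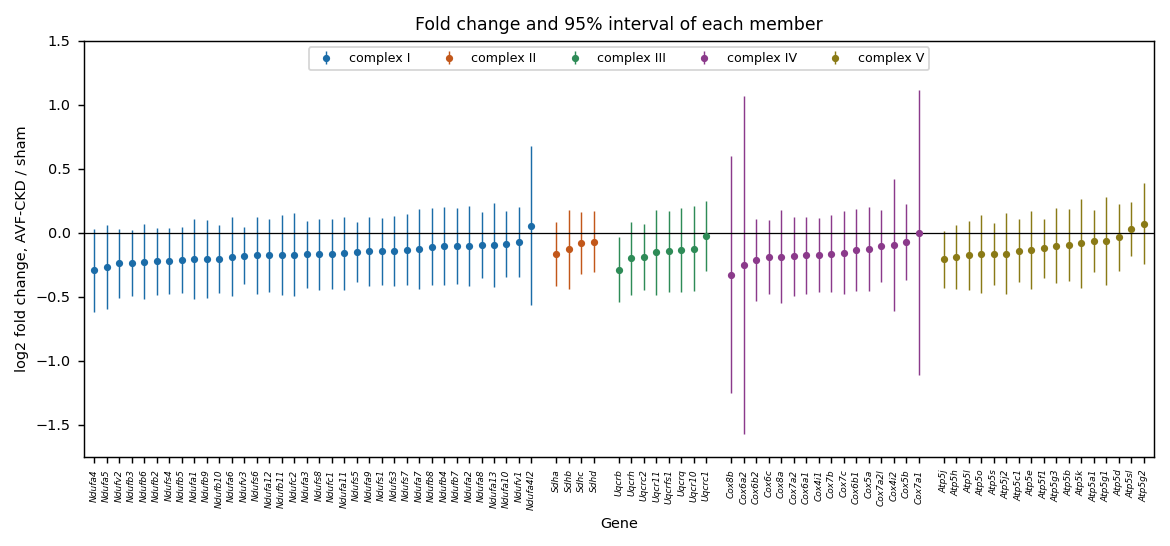
Log2 fold change of AVF-CKD against sham (vertical axis) for 81 of the 82 genes (horizontal axis), ordered within complexes I to V, with bars for the 95% interval of the edgeR fit over 6 sham and 6 AVF-CKD libraries. 77 points lie below 0, every bar but that of Uqcrb crosses 0, and the longest bars belong to Cox8b, Cox6a2 and Cox7a1.

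Complex I genes had a median log2 fold change of -0.17, with 36 of 37 below 0. Ndufa4, counted here by its name although later found to be a subunit of complex IV, had the lowest value in this group. It stood at 106, 122, 124, 103, 118 and 140 CPM in sham 1 to 6 and at 104, 133, 117, 75.6, 69.6 and 82.9 CPM in AVF-CKD 1 to 6. The first 3 fistula libraries thus lay within the range of the sham libraries and the last 3 below it. The difference was -0.29 ± 0.15 on the log2 scale (SE; edgeR adjusted p = 0.568). Ndufb3, a membrane-arm accessory subunit, had a mean of 47.0 CPM ± 4.42 across sham veins against 40.0 CPM ± 7.80 across fistula veins (SD, n = 6 each) (-0.23 ± 0.12, edgeR adjusted p = 0.568). Of the genes counted under complex I by name, the single one above 0 was Ndufa4l2, a hypoxia-induced paralogue of Ndufa4 that pericytes are known to express. It stood at 41.8 CPM in sham 1 and 11.3 to 22.7 CPM in the other sham libraries, and ranged from 16.7 to 30.9 CPM over AVF-CKD libraries, where AVF-CKD 4 was highest (0.05 ± 0.29, edgeR adjusted p = 0.970).

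The 4 genes of complex II, which also acts in the citrate cycle and has no mitochondrially encoded subunit, were all below 0, with a median of -0.10. Sdha, the flavoprotein that oxidises succinate, stood at 185, 191, 180, 223, 207 and 293 CPM in sham 1 to 6 and at 197, 219, 181, 189, 174 and 180 CPM in AVF-CKD 1 to 6. Sham 6 was the highest library, and AVF-CKD 5 and 6 were the lowest, just below the lowest sham library (-0.17 ± 0.12, edgeR adjusted p = 0.696). The iron-sulfur subunit Sdhb had a log2 fold change of -0.13 ± 0.14, and the membrane anchors Sdhc and Sdhd of -0.08 ± 0.11 and -0.07 ± 0.11.

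Among the 8 complex III genes, all below 0 with a median of -0.15, Uqcrb had the smallest p of all members. It encodes the ubiquinone-binding subunit (ENSMUSG00000021520, GRCm38 chromosome 13, 66900617 to 66905378). Its values were 79.3, 90.8, 101, 85.1, 89.9 and 96.6 CPM in sham 1 to 6 and 82.2, 96.5, 79.9, 64.2, 58.1 and 63.6 CPM in AVF-CKD 1 to 6. Again AVF-CKD 4, 5 and 6 lay below every sham library while AVF-CKD 1, 2 and 3 did not. The log2 fold change was -0.29 ± 0.12 (unadjusted p = 0.0294, edgeR adjusted p = 0.498). At the other end of the complex stood the core protein Uqcrc1, with 114 to 161 CPM across sham veins and 94.7 to 166 CPM across fistula veins (-0.02 ± 0.13, edgeR adjusted p = 0.972).

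Of the 16 complex IV genes 15 were below 0, with a median of -0.17. The general subunits had close fold changes: -0.17 ± 0.14 for Cox4i1, the regulatory subunit IV, -0.13 ± 0.15 for Cox5a and -0.07 ± 0.14 for Cox5b, the matrix-side subunits, -0.16 ± 0.14 for Cox7b, and -0.13 ± 0.15 for Cox6b1. Cox7a2l, whose protein helps to join complexes III and IV into supercomplexes, had -0.10 ± 0.13. Cox4i2 was low in every library (1.19 to 2.65 CPM over sham, 1.32 to 2.88 CPM over AVF-CKD libraries), and so was Cox6b2 (1.99 to 3.47 CPM and 1.94 to 2.63 CPM). Per length, Cox4i2 made up 0.984% to 2.52% of the sum of Cox4i1 and Cox4i2, and Cox6b2 0.531% to 1.25% of the sum of Cox6b1 and Cox6b2.

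The 17 complex V genes had the median nearest to 0 but for complex II, at -0.12, with 15 below 0. Atp5j, a subunit of the peripheral stalk, had the smallest p of this complex, with a mean of 148 CPM ± 6.95 across sham veins against 128 CPM ± 22.9 across fistula veins (SD, n = 6 each) (-0.21 ± 0.10, edgeR adjusted p = 0.556). Atp5a1 had means of 527 CPM ± 51.1 and 503 CPM ± 81.0 in the same order (-0.07 ± 0.11). The 3 genes Atp5g1, Atp5g2 and Atp5g3 encode the same mature ring subunit c from different precursors. Per length, Atp5g3 gave 67.3% to 73.6% of their sum in the 12 libraries, Atp5g2 17.1% to 22.3% and Atp5g1 8.20% to 11.6%. Atp5g3 itself ranged from 123 CPM in AVF-CKD 5 to 239.5 CPM in AVF-CKD 2. Atp5g2 and Atp5sl, with log2 fold changes of 0.07 ± 0.15 and 0.03 ± 0.10, were the 2 members of this complex above 0.

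The larger differences lay between libraries of the fistula group. For each member the log2 CPM was set against its mean in sham, and the median over the 82 genes was taken in each library. In sham 1 to 6 this median was -0.07, 0.04, 0.11, -0.16, -0.04 and 0.13. In AVF-CKD 1, 2 and 3 it was -0.04, 0.25 and 0.05, and in AVF-CKD 4, 5 and 6 it was -0.30, -0.59 and -0.40. All 5 complexes had the same order in the fistula group at its ends: each was highest in AVF-CKD 2 (0.22 to 0.28) and lowest in AVF-CKD 5 (-0.65 to -0.45). AVF-CKD 5 held the lowest value of the 12 libraries for 74 of the 82 genes, against 14.6% of all genes, and AVF-CKD 2 the highest for 49, against 8.91%. For 54 of the 82, AVF-CKD 4, 5 and 6 were the 3 lowest libraries, which held for 4.29% of all genes. These 54 were 30 of 37 genes of complex I, 3 of 4 of complex II, 4 of 8 of complex III, 8 of 16 of complex IV and 9 of 17 of complex V. The libraries were singled out after these values were seen, so these counts are a description.

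**Figure D2:**
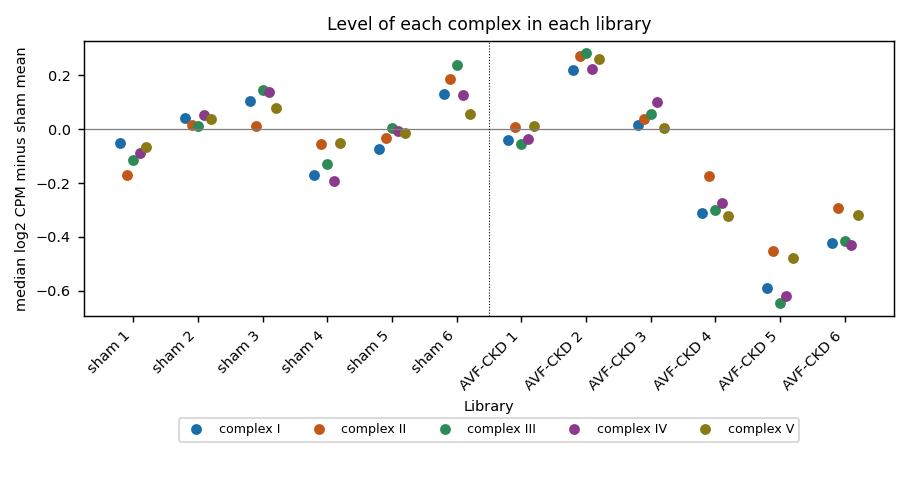
Median over the genes of each complex (colours) of log2 CPM minus the sham mean (vertical axis) in each of the 12 libraries (horizontal axis), with 1 point per complex and library. AVF-CKD 1, 2 and 3 lie within or above the range of the sham libraries, and AVF-CKD 4, 5 and 6 lie lower, with every complex lowest in AVF-CKD 5.

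**Figure D3:**
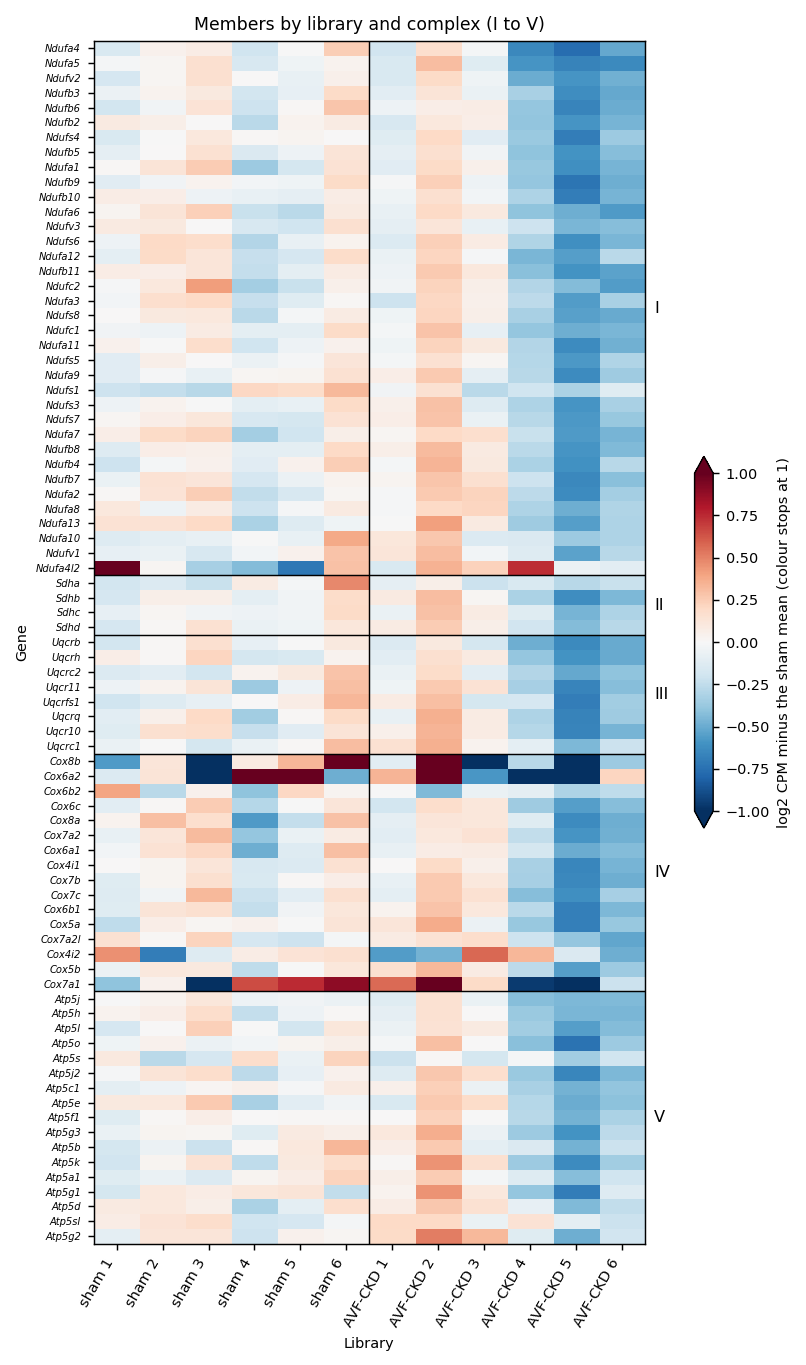
Log2 CPM minus the sham mean (colour, which stops at 1 in either direction) for 81 of the 82 genes (rows, by complex I to V) in the 12 libraries (columns). The columns of AVF-CKD 4, 5 and 6 are blue over nearly all rows of each complex, while Cox6a2, Cox7a1, Cox8b, Cox4i2 and Ndufa4l2 follow other patterns.

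Within title numbers 1 to 3 the members were mostly above 0 (54 of 82, median 0.05), and within title numbers 4 to 6 mostly below (80 of 82, median -0.40). With 3 libraries a group, edgeR called 0 members in either set (lowest adjusted p 0.467 and 0.410), as it called 0% of all genes. At an unadjusted p below 0.05, 64 of the 82 were lower within numbers 4 to 6, where 5.12% of all genes were lower and 5.52% higher, and 0 of 82 within numbers 1 to 3 (5.22% of all genes). Within numbers 1 to 3, 4 of 82 were higher, near the background share of 5.17%. The difference of the fold changes between the sets, as an interaction term in edgeR, had a median of -0.47 over the members. It was unadjusted p below 0.05 and negative for 59 of them (4.31% of all genes), and 0 were called (lowest adjusted p 0.474). The numbers are those of the titles, which do not say that they mark a batch, and the split was known from earlier results of these data, so it carries no independent support. Dbp, a clock-controlled gene, divided along these numbers in the sham group but not in the fistula group. It was at 93.3 to 107 CPM in sham 1 to 3 and at 6.15 to 21.4 CPM in sham 4 to 6. In AVF-CKD 1 to 3 it was at 81.5 to 94.1 CPM. In AVF-CKD 4, 5 and 6 it was at 77.7, 99.6 and 7.65 CPM. The labels give no hour of collection, and the part of clock phase in the member level was not tested. When AVF-CKD 4, 5 and 6 were left out, 69 of 82 members were above 0 with a median of 0.08, and 0 were called. Leaving out AVF-CKD 5 alone moved the median from -0.15 to -0.08, and leaving out AVF-CKD 2 moved it to -0.25, with 22 members lower at an unadjusted p below 0.05 (4.34% of all genes) and 0 called.

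Other measures also differed among the libraries, in both groups. Members are short, with a median length of 1328 bases against 3140 for all genes tested, and 50 of the 82 belong to the 25% shortest genes (up to 1696 bases). The median deviation of all genes of that class from their mean over the 12 libraries was -0.16 in AVF-CKD 5, -0.13 in AVF-CKD 6 and -0.05 in AVF-CKD 4, against 0.12 in AVF-CKD 2 and -0.06 in sham 4, the lowest sham library. In the same order the 85 cytosolic ribosomal protein genes, also short, stood at -0.36, -0.36, -0.20, 0.19 and -0.23, and the members at -0.49, -0.31, -0.21, 0.32 and -0.06. After a smooth curve on gene length was removed from each library, the members stood at -0.38, -0.23, -0.19, 0.26 and -0.03. In both groups the ribosomal protein genes were above 0 in libraries 1 to 3 and below 0 in libraries 4 to 6. In sham 1 to 6 they stood at 0.16, 0.12, 0.45, -0.23, -0.11 and -0.03. The short genes stood at 0.05, 0.10, 0.12, -0.06, -0.02 and 0.00 in sham 1 to 6. The members stood at 0.01, 0.13, 0.19, -0.06, 0.05 and 0.21 in the same libraries. Within numbers 4 to 6 the median fold change of the members was -0.37 with the length curve removed. There 62 of 82 were lower at an unadjusted p below 0.05 and 0 higher (5.01% and 4.64% of all genes). AY036118, a model on a ribosomal DNA copy, held 2.31% to 2.78% of counts in AVF-CKD 4, 5 and 6, 1.57% to 2.09% in AVF-CKD 1, 2 and 3 and 1.45% to 2.33% in sham. The 6 fibroblast markers summed to 44997 to 47664 CPM in AVF-CKD 4, 5 and 6 and to 27680 to 31874 CPM in AVF-CKD 1, 2 and 3, within the sham range of 29862 to 47168 CPM but for the lowest and the highest values. Col3a1 and Col1a1, which encode fibrillar collagens, carried most of that sum. In AVF-CKD 6 the other fibroblast markers Dcn (2329 CPM), Lum (881 CPM) and Dpt (1021 CPM) lay inside the range of AVF-CKD 1, 2 and 3. The 5 macrophage markers present summed to 5022 to 8254 CPM and 8760 to 9643 CPM in the same order, and to 4790 to 9347 CPM in sham. Most of that sum was Lyz2, the lysozyme gene, while Mrc1, a macrophage mannose receptor, was at 328 to 409 CPM in AVF-CKD 4, 5 and 6 and at 243 to 335 CPM in AVF-CKD 1, 2 and 3. The 6 pericyte markers summed to 487 to 756 CPM in AVF-CKD 4, 5 and 6, to 314 to 414 CPM in AVF-CKD 1, 2 and 3 and to 328 to 760 CPM in sham. Rgs5 was the largest part of that sum. Rgs5, Abcc9, Notch3 and Cspg4 were each higher in AVF-CKD 4, 5 and 6 than in AVF-CKD 1, 2 and 3. Kcnj8 in AVF-CKD 6 (22.1 CPM) lay inside the range of AVF-CKD 1, 2 and 3, and Higd1b was highest among fistula libraries in AVF-CKD 3 (3.51 CPM). The brown fat markers summed to 19.0 to 48.8 CPM in AVF-CKD 4, 5 and 6, 6.77 to 11.6 CPM in AVF-CKD 1, 2 and 3 and 13.0 to 128 CPM in sham. In AVF-CKD 5 and 6 most of that sum was the marker Dio2 (17.8 and 15.6 CPM), with Ucp1 at 0.363 and 0.621 CPM. Dio2 was at 5.67 to 8.15 CPM in AVF-CKD 1, 2 and 3, and Ucp1 at 0.0786 to 0.388 CPM. Only in AVF-CKD 4 was Ucp1 higher among the fistula libraries, at 10.5 CPM. The part of RNA quality and of cell types in the member level was not tested.

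Skeletal muscle RNA was present in every library in unequal amounts, and the muscle forms Cox6a2 and Cox7a1 of complex IV subunits rose with it. All 20 skeletal muscle markers passed the filter on low counts, among them Ckm, the muscle creatine kinase, which ranged from 54.2 to 1548 CPM over sham and from 89.6 to 1655 CPM over AVF-CKD libraries. The mean log2 CPM of these markers, called the muscle level here, was 7.41, 7.59, 4.73, 9.18, 8.11 and 7.51 in sham 1 to 6 and 7.73, 9.18, 6.91, 5.86, 5.48 and 8.09 in AVF-CKD 1 to 6. The mean of AVF-CKD minus that of sham was -0.21 (p = 0.820, exact permutation of the group labels, two-sided). None of the markers is a member. In a fit over all genes with the group and the muscle level as terms, 2 of the 82 members were called with a positive slope on the muscle level (1.75% of all genes) and 0 with a negative slope (0.0105%), by edgeR. A slope of 1 means that a gene changes by as much as the markers on the log2 scale.

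Cox6a2, the heart and skeletal muscle form of subunit VIa (ENSMUSG00000030785, GRCm38 chromosome 7, 128205436 to 128206366), rose most steeply with the muscle level. It stood at 17.3, 20.8, 5.21, 49.8, 38.0 and 13.6 CPM in sham 1 to 6 and at 24.2, 52.2, 12.8, 6.49, 3.61 and 22.2 CPM in AVF-CKD 1 to 6. The libraries with the most muscle marker RNA, sham 4 and AVF-CKD 2, were the highest, and sham 3, AVF-CKD 4 and AVF-CKD 5, with the least, were the lowest. The slope was 0.85 ± 0.07 (SE; edgeR adjusted p = 1.1e-05). Exons of Itgad on the opposite strand overlap 10.3% of its exonic bases. Its general counterpart Cox6a1 ranged from 95.7 to 165 CPM over sham and from 95.4 to 142 CPM over AVF-CKD libraries, with a slope of -0.03 ± 0.06 (edgeR adjusted p = 1.00). Per length, Cox6a2 made up between 3.47% of the sum of both forms in sham 3 and 35.7% in sham 4.

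Cox7a1, the muscle form of subunit VIIa (ENSMUSG00000074218, GRCm38 chromosome 7, 30184171 to 30186028), stood at 5.56, 7.56, 1.94, 11.6, 12.3 and 13.7 CPM in sham 1 to 6 and at 10.9, 20.9, 8.42, 3.78, 2.34 and 6.35 CPM in AVF-CKD 1 to 6. Its slope on the muscle level was 0.69 ± 0.11 (edgeR adjusted p = 0.00326), against -0.03 ± 0.06 for the general form Cox7a2. It made up 3.52% to 31.4% of the sum of both, lowest again in sham 3 and highest in AVF-CKD 2. With the title number as a replicate block Cox7a1 was no longer called (slope 0.71).

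Cox8b, the form of subunit VIII found in muscle and brown fat (GRCm38 chromosome 7, 140898943 to 140900446), had values of 9.51, 15.3, 6.56, 15.0, 17.7 and 30.8 CPM in sham 1 to 6 and of 13.1, 28.8, 6.31, 11.6, 4.83 and 11.0 CPM in AVF-CKD 1 to 6. It was highest in sham 6, whose muscle level was near the middle. The slope of 0.42 ± 0.13 was not called (edgeR adjusted p = 0.229), but was called at 0.54 when the level of 10 fat markers was added to the fit. Brown fat markers were raised in the same library: Ucp1, the uncoupling protein of brown fat, stood at 42.5 CPM in sham 6, at 10.5 CPM in AVF-CKD 4 and at most 0.621 CPM in the other 10 libraries, with 0 reads in sham 5. The part of brown fat RNA in the Cox8b values was not tested. The general form Cox8a had a slope of -0.02 ± 0.07.

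**Figure D4:**
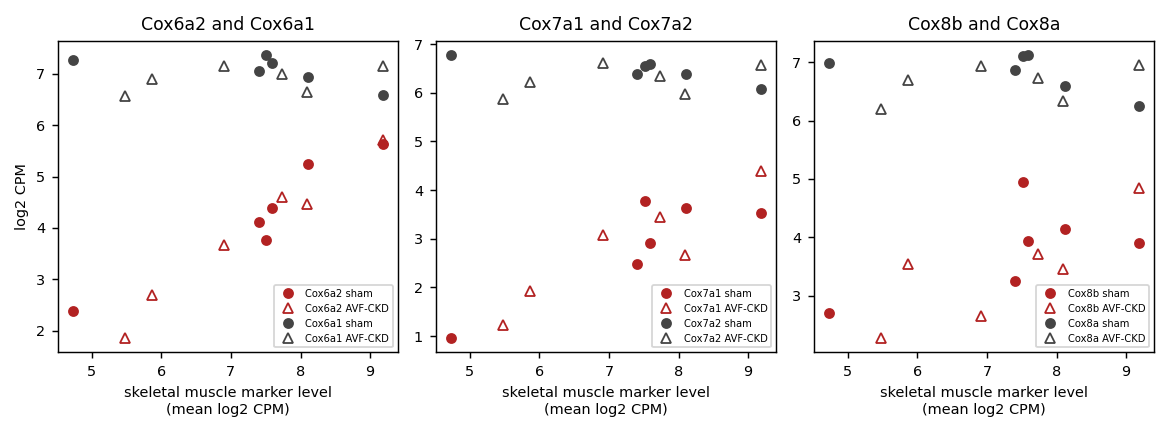
Log2 CPM (vertical axes) of the muscle form (red) and the general form (grey) of complex IV subunits VIa, VIIa and VIII against the skeletal muscle marker level, the mean log2 CPM of 20 markers (horizontal axes), in 6 sham (filled circles) and 6 AVF-CKD libraries (open triangles). The red points rise from left to right, most steeply for Cox6a2, with sham 6 standing above the others for Cox8b, and the grey points show no such rise.

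The other 79 members had slopes from -0.08 to 0.12, and none was called (smallest edgeR adjusted p 0.312). The median slope over all 82 was 0.04, with 71 above 0, beside a median of -0.00 over all genes. The highest of these slopes belonged to Atp5g1 (0.12 ± 0.05) and to the core subunit gene Ndufs1 of complex I (0.11 ± 0.04). With the muscle level as a covariate the median fold change of the members between fistula and sham was -0.15, as it was without it, and 0 were called. The fat level is the mean log2 CPM of 10 fat markers. Its mean in AVF-CKD minus that in sham was -0.74 (p = 0.0606, exact permutation of the group labels, two-sided). With muscle and fat levels as covariates 66 of the 82 members were below 0, against 78 with the muscle level alone. Again 0 were called. The part of fat in the group difference was not tested.

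Genes around the respiratory chain gave no calls between fistula and sham either (0 of 78 tested in 8 lists, and 0% of all genes). All 13 complex I assembly factors found were below 0 (median -0.11), as were the 6 of complex III (median -0.13) and the 4 of complex V (median -0.16). Those of complex IV were split, with 12 of 19 below 0 (median -0.08), and the 2 of complex II found stood on either side of 0. Of 12 citrate cycle genes 11 were below 0 (median -0.14). Cs, which encodes citrate synthase, had a mean of 193 CPM ± 44.5 across sham veins against 178 CPM ± 18.1 across fistula veins (SD, n = 6 each) (-0.11 ± 0.13, edgeR adjusted p = 0.828). Cycs, which encodes the cytochrome c that carries electrons from complex III to IV, had means of 35.1 CPM ± 5.31 and 28.4 CPM ± 4.56 (-0.31 ± 0.13, unadjusted p = 0.0306, edgeR adjusted p = 0.501). Of the 10 genes for electron carriers and exchange 9 were below 0 (median -0.12). Slc25a4, the ADP/ATP carrier of muscle and heart, and Vdac1, an outer membrane channel, had called slopes on the muscle level (0.20 ± 0.04, edgeR adjusted p = 0.0105, and 0.16 ± 0.03, edgeR adjusted p = 0.0221).

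Of 12 regulator and mitochondrial DNA expression genes tested 8 were above 0 and 4 below (median 0.03), and 0 were called. Nrf1 had a mean of 24.6 CPM ± 1.14 across sham veins against 25.3 CPM ± 2.11 across fistula veins (SD, n = 6 each) (0.04 ± 0.07, edgeR adjusted p = 0.899), and Gabpa, the DNA-binding part of GABP, means of 73.0 CPM ± 3.64 and 73.3 CPM ± 6.46 (0.01 ± 0.07, edgeR adjusted p = 0.986). Tfam, which packages and transcribes mitochondrial DNA, was at -0.08 ± 0.08 on the log2 scale (edgeR adjusted p = 0.783). Ppargc1a, the coactivator PGC-1α, was low, with 0.824 to 4.17 CPM over sham and 0.868 to 2.22 CPM over AVF-CKD libraries (-0.44 ± 0.40, edgeR adjusted p = 0.767). Its highest values were in sham 4 and sham 6.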

How the data were processed

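RNA of 12 mouse vein libraries was sequenced, per the labels' protocols with the TruSeq RNA Sample Prep Kit v2, which does not mark strand. The authors deposited raw read counts per gene and RPKM values (reads scaled by gene length and library size) in 1 table. The submitters' processing notes name TopHat2 2.1.0, featureCounts, edgeR and GRCm38 without their roles. Counting of multi-mapped reads is not given in the sources used here.

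From the counts, genes were kept by filterByExpr (18965 genes), scaled by TMM and tested between the groups with edgeR 4.0.16 (glmQLFit and glmQLFTest, R 4.3.3, Benjamini-Hochberg over all genes, threshold 0.05). A second fit added the muscle level and tested its slope. CPM values were scaled with the TMM factors. A prior count of 2 was used for log2 CPM in the marker levels, the length measures and the pair correlations. It was also used to find the lowest and highest library of each gene. The library medians set against the sham mean and the figures of log2 CPM used no prior count. Deposited RPKM values were used only for levels between genes. Genes named were, in each complex, the member with the highest mean RPKM and those with the highest and lowest fold change, the 3 members with the smallest p in each direction, the isoform sets, Sdha to Sdhd, Ppargc1a, Tfam, Cycs, Cs, any other called pathway gene, and Ckm, Acta1, Adipoq, Ucp1 or markers shown beside a result. Ndufs1, Nrf1 and Gabpa were chosen after their values were seen. The values of 1 member are not reported here, though counts and medians include it. The members, lists and splits were chosen with earlier results of these data known. Gene coordinates are those of the deposited table and window coordinates those of the RefSeq promoter table, on GRCm38. Exonic overlap was computed from GENCODE M21. Overlap with other gene models exceeded 10% of exonic bases for 11 members (at most 47.9%, Atp5o).

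In simulated counts for the group comparison (18818 genes), edgeR recovered 47% of genes changed 1.5-fold, 70.1% at 2-fold and 96.9% at 4-fold, with 3.42% false calls. For the slope (18801 genes) it recovered 95.4%, 98.5% and 100%, with 3% false calls. There the same folds applied per unit of the muscle level, which ranged from 4.73 to 9.18, and smaller slopes were not simulated. Genes were simulated independently of each other, unlike members that move together. No library was a copy of another: each of the 66 pairs differed by more than sampling noise. Alternatives were other scalings, filters and tools (DESeq2 1.42.0, limma 3.58.1), covariates, a replicate block and leaving out libraries.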

Additional observations from a re-analysis of the deposited data

Results flagged for a closer look

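Within-group gaps were examined for the named members, pathway genes and summed levels in 84 groups of 6 libraries, of which 8 had a library set apart. Chance sets apart about 1 in 20 groups. In sham 1, 3 genes stood apart: Ndufa4l2 was at 41.8 CPM against 11.3 to 22.7 CPM in the other sham libraries, Cox5a at 81.0 CPM against 96.4 to 105.5 CPM, and Cycs at 24.5 CPM against 36.2 to 38.6 CPM. In sham 6, Uqcrc1 was at 161 CPM against 114 to 130.5 CPM, Sdhc at 109 CPM against 90.05 to 96.5 CPM, and the complex II genes summed to 651 CPM against 474 to 527 CPM. Sham 6 was also the library with the most fat marker RNA (fat level 8.01, Adipoq at 386 CPM), and the part of fat in these values was not tested. In AVF-CKD 2, Cox8b was at 28.8 CPM against 4.83 to 13.1 CPM in the other AVF-CKD libraries. In AVF-CKD 4, the fat level, the mean log2 CPM of 10 fat markers, was 6.64 against 5.39 to 5.86.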

How the results depend on the processing

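With every alternative run, 0 members were called between the groups, DESeq2 included, which called 102 genes. Log2 fold changes are given here, as medians for all members and for complexes. Without 1 library at a time the median of all members ranged from -0.25 to -0.08. Named genes are then listed where the sign changed from a main value larger than its SE. Medians are listed where the sign changed or the value moved beyond the pooled SD between libraries. With muscle and fat levels as covariates complex II was at 0.00174, Sdha at 0.0590 and Ppargc1a at 0.311. In title numbers 1 to 3 alone all members were at 0.0499, complexes I to V at 0.0142, 0.137, 0.0883, 0.0380 and 0.0929, Ndufa4 at 0.00374, Sdha at 0.103, Cox4i1 at 0.0302, Cox7b at 0.0745, Ppargc1a at 0.448 and Tfam at 0.0305. In title numbers 4 to 6 alone all members were at -0.40 and complexes I, II, III and V at -0.41, -0.37, -0.43 and -0.39. Complex IV moved there by less than its pooled SD between libraries (0.247) and is not listed. Without AVF-CKD 4, 5 and 6, chosen after seeing the data, all members were at 0.0762, complexes I to V at 0.0593, 0.117, 0.0918, 0.0858 and 0.0977, Uqcrh at 0.0465, Cox4i1 at 0.0751, Cox6a1 at 0.00286, Cox7a2 at 0.0342, Cox7b at 0.0965, Cox8a at 0.0181 and Tfam at 0.0174. The cause of these shifts was not tested.

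Same-numbered libraries were not closely matched as pairs (correlation of deviations -0.11 to 0.28, best with their own number in 1 of 6). These correlations compare single pairs, so they cannot show whether a whole set of title numbers shares a feature. The ribosomal protein genes described above did differ between the sets of title numbers in both groups. With the number as a replicate block the median was -0.17, 9 members were lower at an unadjusted p below 0.05 (4.7% of all genes), and 1 member in place of 2 was called for the muscle slope. The common dispersion between libraries was 0.0588, and the part of depth was not tested.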
